A study of Homo sapiens with 4 samples.

Results

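A set of 10 genes of the NF-kB system was followed on exon arrays of a pair of human cell lines in which ADAR had been lowered. ADAR encodes ADAR1, which edits double-stranded RNA by turning adenosines into inosines. The genes were chosen by name: the 5 subunits NFKB1, NFKB2, REL, RELA and RELB, the IkB inhibitors NFKBIA and NFKBIE, and the feedback genes TNFAIP3, BIRC3 and ZC3H12A. Earlier results of these data were known when they were chosen, so their counts beside those of all genes only describe them. Each was represented by its brightest transcript cluster among those annotated with that symbol alone. In this way 9 of the 10 genes were found among the 14232 genes of the table, each with 1 cluster. BIRC3 had no cluster under its own symbol, alone or shared, and its level was not analysed here. There were 4 arrays, 1 per group. HepG2, known as a liver tumour line, and K562, a line from chronic myeloid leukaemia, carried either a stably transfected plasmid with an siRNA against ADAR1 (ADARkd) or one with a scrambled siRNA (SCR). All groups, the controls included, therefore carried a plasmid. The lines were also grown in different media, so line and medium cannot be told apart. The siRNA was the one of several tested that lowered ADAR most, and the labels do not say whether a line was 1 clone or a pool.

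NF-kB is a family of dimeric transcription factors that share a DNA-binding Rel homology region. In resting cells IkB proteins hold the dimers in the cytoplasm. Receptors for cytokines and sensors of microbial or double-stranded RNA activate the IKK kinases, which mark IkB for destruction, and the dimers enter the nucleus. Many of their target genes encode parts of the system itself: precursor subunits, the IkB proteins that end the response, and enzymes that take apart the signalling complexes or degrade inflammatory mRNA.

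Promoter windows of the members from RefSeq (build GRCh38.p14, 250 bases before to 50 after each annotated start) were searched on both strands for the NF-kB consensus, a motif of 10 bases, and overlapping matches were merged into 1 site. Of the 10 genes, 8 had at least 1 window in the table, and 6 of these held a match in at least 1 window: NFKB1, NFKB2, REL, NFKBIA, TNFAIP3 and BIRC3. RELA and ZC3H12A had windows without a match, and RELB and NFKBIE had no entry. Across all 27305 genes with a window, 7.09% held a match, and across all 35116 windows 5.91% did. The matched stretches are shown because several of these genes are textbook targets of NF-kB itself, and the letters of its motif stand close to their starts. Each runs 5′ to 3′ along the gene's strand, from 20 bases before the first site to 20 after the last or to the base before the start, with the matches in capitals:
NFKB1, chr4:102501290-102501339, plus strand: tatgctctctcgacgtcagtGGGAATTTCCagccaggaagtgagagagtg
NFKB2 (its middle start), chr10:102394451-102394529, plus strand: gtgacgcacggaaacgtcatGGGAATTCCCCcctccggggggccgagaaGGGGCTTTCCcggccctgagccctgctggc
NFKB2 (its last start), chr10:102395509-102395704, plus strand: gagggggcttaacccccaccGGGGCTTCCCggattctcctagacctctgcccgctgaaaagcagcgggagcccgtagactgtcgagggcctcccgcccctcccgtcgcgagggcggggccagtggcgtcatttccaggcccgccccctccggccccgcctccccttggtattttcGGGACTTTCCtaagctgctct
REL, chr2:60881507-60881557, plus strand: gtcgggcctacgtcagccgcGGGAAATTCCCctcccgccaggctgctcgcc
NFKBIA, chr14:35404801-35404850, minus strand: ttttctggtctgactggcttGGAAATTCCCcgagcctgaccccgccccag
TNFAIP3, chr6:137867172-137867233, plus strand: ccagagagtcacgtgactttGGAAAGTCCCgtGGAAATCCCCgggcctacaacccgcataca
BIRC3, chr11:102317265-102317378, plus strand: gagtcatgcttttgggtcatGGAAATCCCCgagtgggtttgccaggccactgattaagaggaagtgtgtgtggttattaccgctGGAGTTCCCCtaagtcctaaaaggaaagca

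Every site lay upstream of its start. In NFKB1 it covered positions -49 to -40 relative to the start, in REL -47 to -37, where overlapping matches spanned 11 bases, and in NFKBIA -81 to -72. TNFAIP3 had a close pair, at -67 to -58 and at -55 to -46. NFKB2 had none at its first start, a pair at -107 to -97 (again 11 bases) and -78 to -69 at the middle one, and a pair at -176 to -167 and -21 to -12 at the last. BIRC3 had sites at -199 to -190 and -135 to -126. A match describes letters only, and binding was not measured. Among lists of related genes, a match was found in 4 of 5 other members of the IkB family and in 13 of 27 other NF-kB target genes with a window, in 1 of 13 genes of IKK and its activators, 2 of 16 adaptors, 0 of 11 receptors, 3 of 16 other negative regulators and 2 of 6 paralogs of BIRC3 and ZC3H12A.

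**Figure D1:**
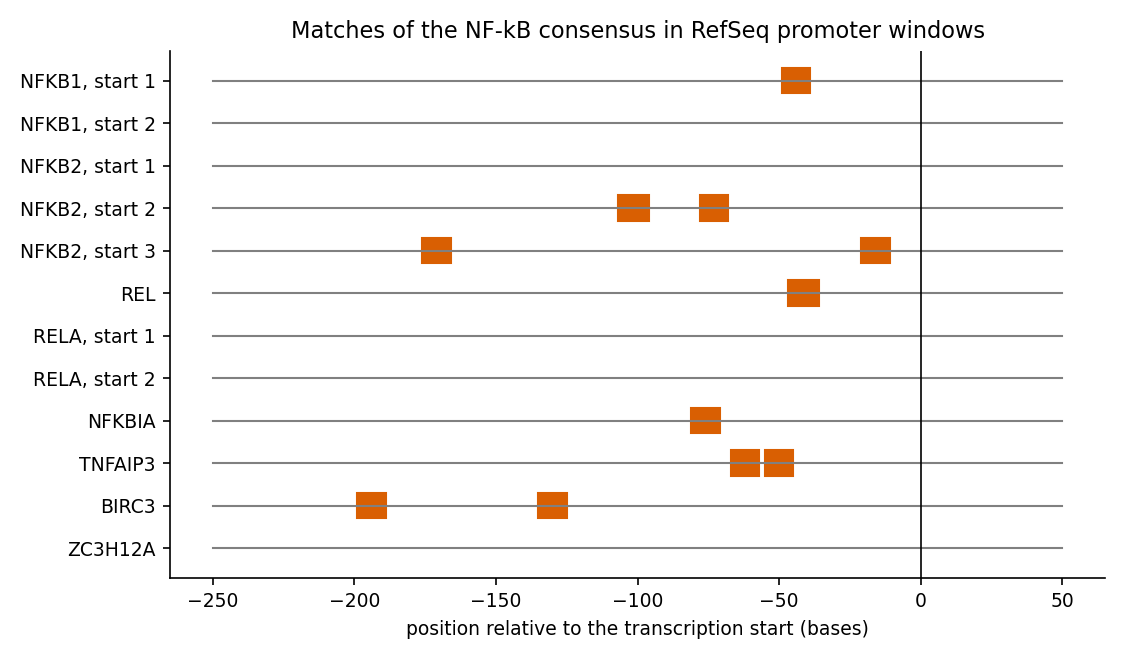
Position of each match of the NF-kB consensus (orange) in the 12 RefSeq promoter windows of the 8 genes that have one; the horizontal axis is the position relative to the transcription start in bases and each line is 1 window. All 11 merged sites lie upstream of the start, and the windows of RELA and ZC3H12A hold none.

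Some properties of the arrays bear on all values. Median intensities of the 4 arrays ran from 36.08 to 36.96. ADAR was 3.23-fold lower in ADARkd on the arrays labelled HepG2 and 2.32-fold lower in K562, so the targeted transcript was lower in both. Of 15 measured hepatocyte markers 2 reached the median of all genes on the arrays labelled HepG2 (CPS1 and FOXA1), and ALB stood there at log2 intensities of 3.04 and 2.97; these arrays are therefore called labelled HepG2. Of 9 measured erythroid markers 9 reached that median in K562. With 1 array per group there is no replicate error within a line, and no difference within a line was tested. A gene was kept in a line where the mean of its log2 values there reached the median of all genes, 5.31 on the arrays labelled HepG2 and 5.28 in K562, which left 7116 genes in each. All 9 measured members were kept on the arrays labelled HepG2 and 7 in K562, where TNFAIP3 and ZC3H12A lay under the filter level.

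On the arrays labelled HepG2 all 9 measured members were higher in ADARkd than in SCR, with log2 differences from 0.14 to 1.62 and a median of 0.69. The median over all genes kept there was 0.11, and 60.9% of them were higher in ADARkd. TNFAIP3 was the 1 member at least 2-fold higher, where 2.46% of all kept genes were. At least 1.5-fold higher were 5 of 9, where 12.4% were: NFKB1, NFKB2, RELB, TNFAIP3 and ZC3H12A. ZC3H12A, at 5.18 in SCR, was kept there only through its ADARkd level of 6.12. The count was also 5 without a filter, and 4 with log2(value + 16). After quantile normalization and after cyclic loess, which bring the median of all kept genes to 0.01, all 9 were still higher, and the all-gene split of 175 higher and 112 lower at 2-fold became 124 and 140 or 132 and 135. No member was at least 1.5-fold lower, against 5.73% of all kept genes, or 2-fold lower, against 1.57%. In K562 the differences of the 7 kept members ran from -0.56 to 0.03, with a median of -0.15 against -0.07 over all kept genes; 5 were lower in ADARkd, as were 66.7% of all kept genes. Scaling turned none of these signs. No member there was at least 1.5-fold higher (0.267% of kept genes) or lower (0.759%), or 2-fold higher (0.0281%) or lower (0.126%).

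**Figure D2:**
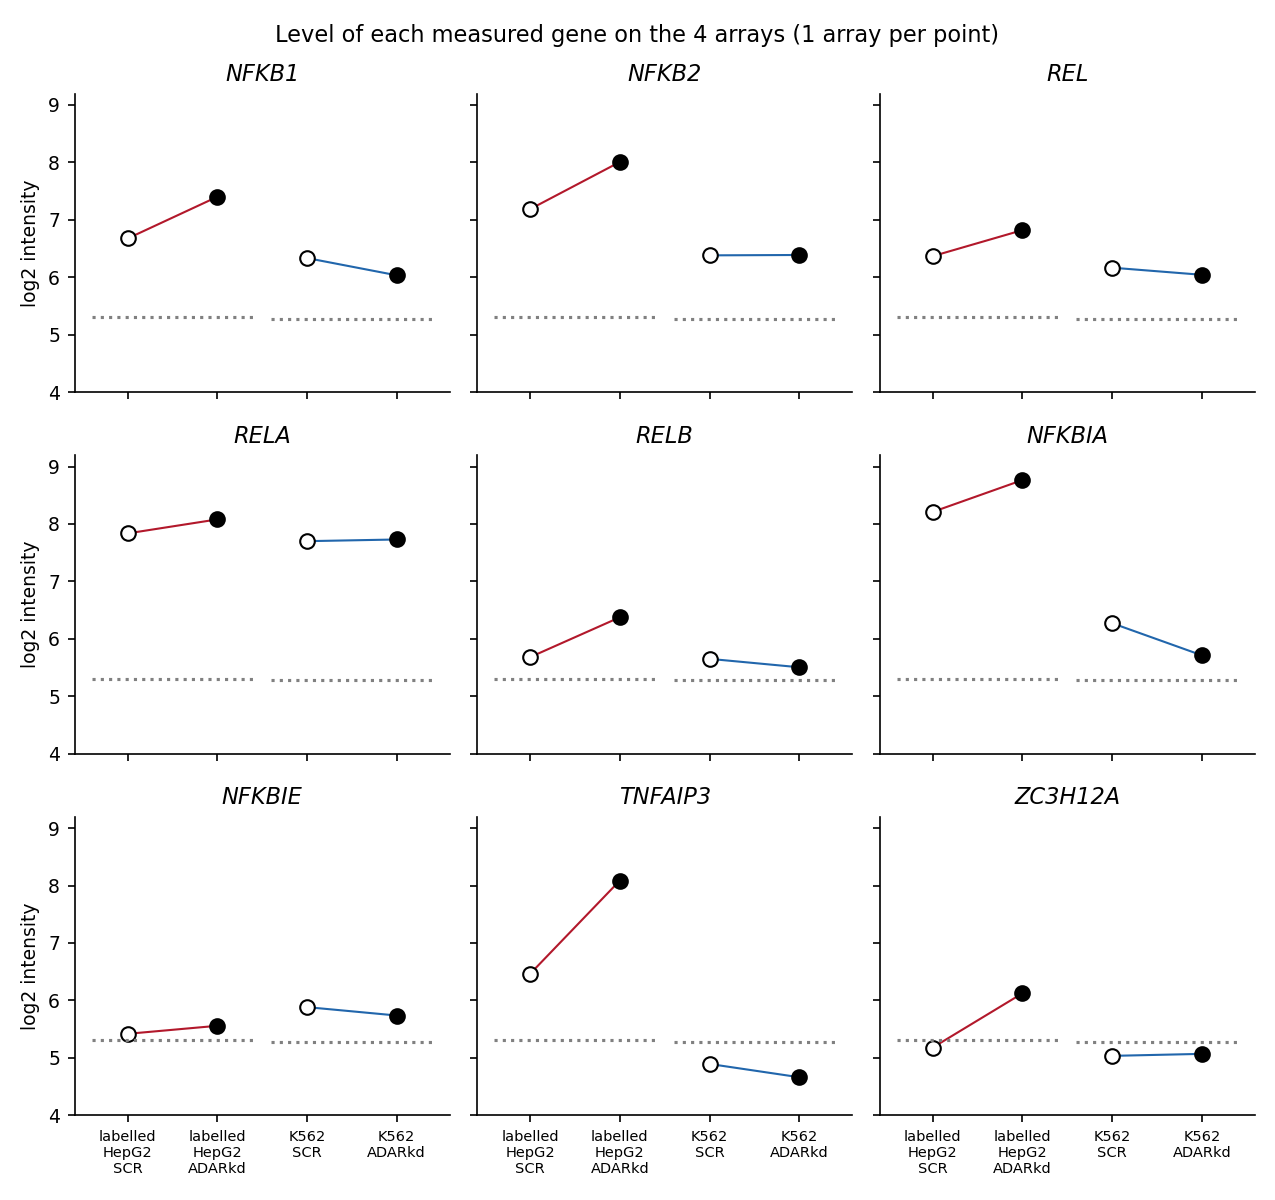
Log2 intensity (vertical axis) of the 9 measured genes on each of the 4 arrays (horizontal axis), 1 array per point; open points are SCR, filled points ADARkd, and dotted lines the filter level of each line. The ADARkd point is the higher one of the pair labelled HepG2 in all 9 panels, by the most in TNFAIP3, while the K562 pairs lie close together except in NFKBIA and NFKB1.

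Among the subunits, NFKB2, NFKB1 and RELB had the largest differences on the arrays labelled HepG2, which was not the order in K562. NFKB2, the precursor of the subunit p52, stood at a log2 intensity of 7.19 in SCR and 8.01 in ADARkd on the arrays labelled HepG2, and at 6.38 and 6.39 in K562. Its log2 difference was 0.82 in the first pair, 1.77-fold, and 0.01 in the second. The ADARkd array labelled HepG2 was thus the highest of the 4, and the K562 arrays were nearly level.

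NFKB1, the precursor of p50, stood at 6.68 and 7.40 on the log2 scale on the arrays labelled HepG2 and at 6.34 and 6.04 in K562. The log2 differences were 0.73, 1.65-fold higher, and -0.30. The lines thus differed in sign for this gene. RELB, the partner of p52 in the alternative pathway, had log2 intensities of 5.68 and 6.38, then 5.65 and 5.51, with differences of 0.69 (1.62-fold) and -0.15. Its SCR level was nearly the same in both lines, and the ADARkd array labelled HepG2 stood apart from the other 3.

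REL, the c-Rel subunit best known from lymphocytes, stood at 6.37 and 6.82 on the log2 scale on the arrays labelled HepG2 and at 6.17 and 6.04 in K562. The log2 differences were 0.45 and -0.12. RELA, which forms the classical dimer with p50, had levels of 7.84 and 8.08, then 7.70 and 7.73, and differences of 0.24 and 0.03. RELA was the subunit with the smallest log2 difference between arms in the pair labelled HepG2, and its 4 values were the closest together of the 5 subunits. After cyclic loess or quantile normalization its difference there was 0.09 or 0.10, about as large as in K562 (0.11 in each).

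Of the inhibitors, NFKBIA, the IkB protein that is resynthesised quickly after activation, stood at log2 intensities of 8.21 in SCR and 8.76 in ADARkd on the arrays labelled HepG2, and at 6.27 and 5.72 in K562. The log2 differences were 0.55, 1.47-fold higher, and -0.56, 1.47-fold lower. It had the lowest K562 difference of the kept members, number 65 from the lowest of the 7116 kept genes there. NFKBIE, another cytoplasmic inhibitor, had log2 levels of 5.42 and 5.56, then 5.88 and 5.74. Its differences were 0.14 and -0.15. The first was the smallest of the 9 members on the arrays labelled HepG2 and close to the 0.11 median of all kept genes there.

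The measured feedback genes had the highest differences of the 9 members on the arrays labelled HepG2. With log2(value + 16), however, ZC3H12A (0.71) stood under NFKB2 (0.76). TNFAIP3, the ubiquitin-editing enzyme A20 that shuts off signalling to IKK, stood at a log2 intensity of 6.46 in SCR and 8.09 in ADARkd on the arrays labelled HepG2. The log2 difference of 1.62, or 3.08-fold, was number 27 from the highest of the 7116 kept genes. In K562 its log2 levels were 4.89 and 4.66, both under the filter level. ZC3H12A, the endoribonuclease Regnase-1 that degrades IL6 mRNA and others, stood at 5.18 and 6.12 on the log2 scale, a difference of 0.94 or 1.92-fold, and at 5.04 and 5.07 in K562. Its SCR value on the arrays labelled HepG2 and both K562 values lay under the filter level, and the part of background in them was not tested. TNFAIP3 and ZC3H12A were thus dim in K562, with K562 differences of -0.23 and 0.03.

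**Figure D3:**
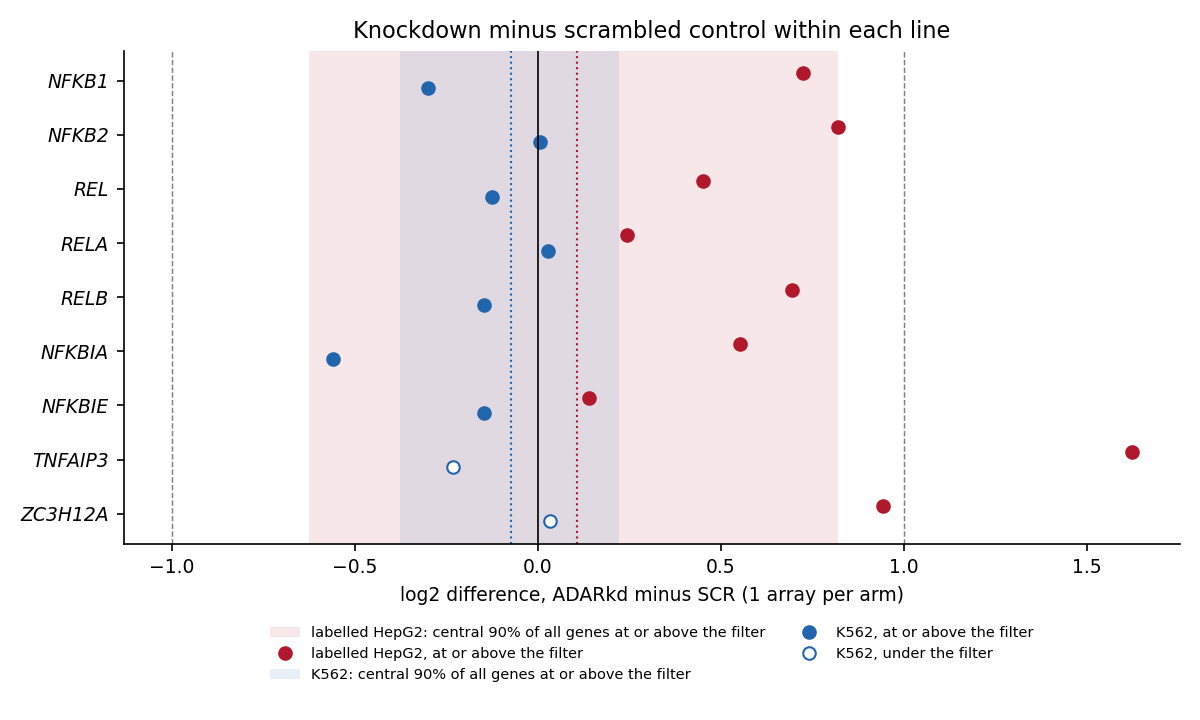
Log2 difference, ADARkd minus SCR, of the 9 measured genes (rows) on the arrays labelled HepG2 (red) and in K562 (blue); open points lie under the filter, bands span the central 90% of all kept genes in each line, dotted lines mark their medians and dashed lines 2-fold. All red points lie right of 0 and of the median of 0.11, and TNFAIP3, at 1.62, is the only one past 2-fold.

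The 5 measured members with a consensus match in a promoter window had log2 differences between 0.45 (REL) and 1.62 (TNFAIP3) on the arrays labelled HepG2. Of the measured pair whose windows held no match, RELA differed by 0.24 and ZC3H12A by 0.94. These values describe 7 genes, and no relation of motif and level was tested.

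A test of the knockdown was possible only across the lines. In a limma fit with line and arm as terms, 7 members kept in both lines were tested among 6204 genes, with 1 residual degree of freedom. The shared log2 difference was 0.41 ± 0.25 (SE) for NFKB2, 0.27 ± 0.23 for RELB, 0.21 ± 0.26 for NFKB1, 0.16 ± 0.22 for REL and 0.14 ± 0.21 for RELA. For NFKBIA it was -0.0022 ± 0.28 and for NFKBIE -0.0031 ± 0.19, since their differences in the lines were of about equal size and opposite sign. None of the members passed (limma adjusted p = 0.9996 for each of the 7), nor did any gene: 0% of the 6204 were called, 179 had an unadjusted p under 0.05, and no member was among these. ADAR itself had a limma adjusted p of 0.87, the lowest of all genes. Whether the knockdown differences of the lines differ could not be tested, because such a term uses up all 4 arrays. Each SE rests on that same difference between the lines and on a spread shared across genes, not on replicates.

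The level of each member was also set between the lines. With the same terms, K562 minus the arrays labelled HepG2 was tested on 8028 genes kept in either line, and calls needed 2-fold as well as an adjusted p under 0.05. Of the 9 members, 3 were higher on the arrays labelled HepG2, where 14.7% of all tested genes were, and none was higher in K562, where 10.3% were. The 3 were NFKBIA, TNFAIP3 and NFKB2. NFKBIA had mean log2 levels of 8.49 on the arrays labelled HepG2 and 5.99 in K562, a difference of -2.49 ± 0.29 (SE; limma adjusted p = 0.00053), 5.63-fold. TNFAIP3 had 7.28 and 4.78, a difference of -2.50 ± 0.40 (limma adjusted p = 0.0024), 5.64-fold, with its K562 side under the filter level. NFKB2 had 7.60 and 6.39, a difference of -1.21 ± 0.25 (limma adjusted p = 0.0077), 2.32-fold.

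The other members did not pass both bounds. NFKB1 differed between the lines by -0.85 ± 0.27 on the log2 scale (limma adjusted p = 0.042), under 2-fold. The differences were -0.60 for ZC3H12A, -0.49 for REL, -0.45 for RELB and -0.24 for RELA, and NFKBIE alone was higher in K562, by 0.32; their limma adjusted p-values ran from 0.11 for ZC3H12A to 0.37 for RELA. Ordered by level, each of the 9 but NFKBIE stood highest on the ADARkd array labelled HepG2, next on the SCR array labelled HepG2, and lowest on the K562 arrays. For NFKBIE both K562 arrays stood above both others.

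Both arms enter this fit, and the arms differed in size. With the SCR arrays alone the K562 minus HepG2 log2 difference was -1.94 for NFKBIA, -1.57 for TNFAIP3, -0.80 for NFKB2, -0.34 for NFKB1 and -0.03 for RELB. With the ADARkd arrays alone it was -3.05, -3.42, -1.62, -1.37 and -0.87 for the same genes, and -1.05 for ZC3H12A. Members at least 2-fold apart thus numbered 2 in the SCR arrays (NFKBIA and TNFAIP3) and 5 in the ADARkd arrays, which added NFKB1, NFKB2 and ZC3H12A. The p-values rest on 1 residual degree of freedom and on a spread shared across genes. In this fit that degree of freedom holds only how far the knockdown difference differed between the lines. It is not a spread between replicates, and no label gives separate cultures for the arrays.

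**Figure D4:**
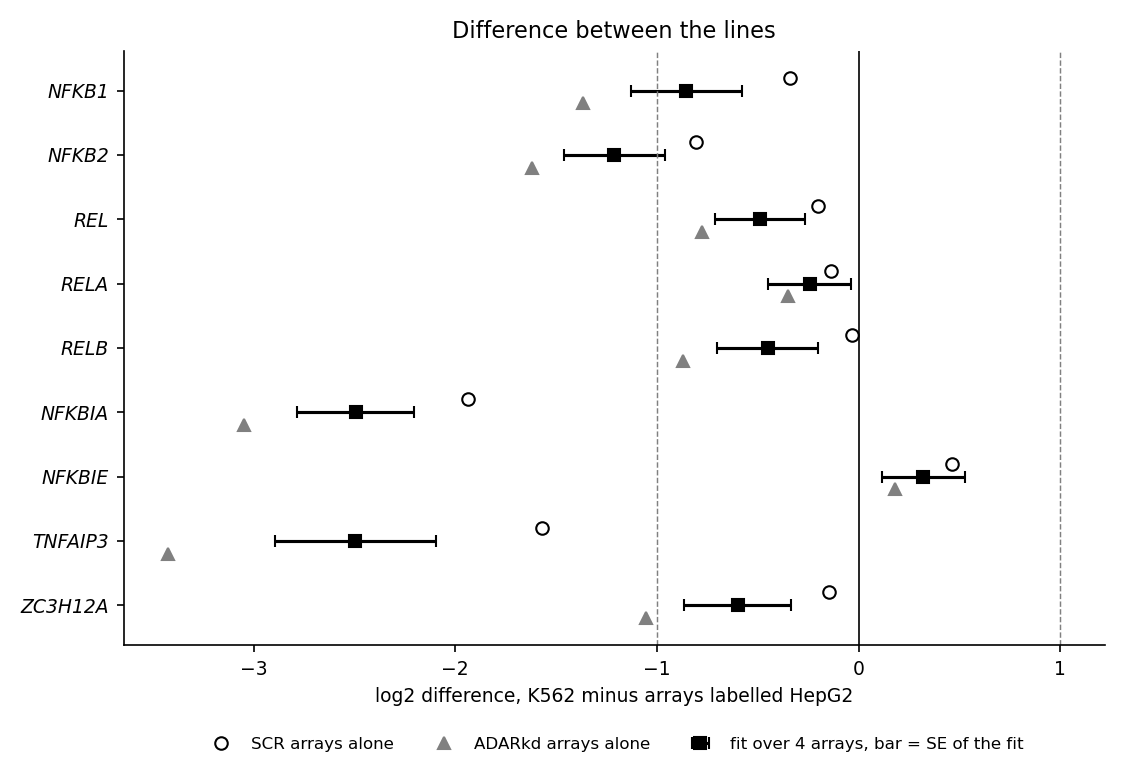
Log2 difference, K562 minus the arrays labelled HepG2, for the 9 measured genes (rows): squares give the limma fit over 4 arrays with its SE, open circles the SCR arrays alone and triangles the ADARkd arrays alone; dashed lines mark 2-fold. NFKBIA and TNFAIP3 lie past 2-fold in every case, and NFKBIE alone lies right of 0.

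The rest of the pathway was described from lists of its parts, also chosen with earlier results of these data known. On the arrays labelled HepG2 the lists are read against the same background of 12.4% of kept genes at least 1.5-fold higher and 5.73% lower. IKK and its activators had a median log2 difference of 0.02 over 10 kept genes of 13 measured and 16 listed, with 1 at least 1.5-fold higher and 0 lower. The median was -0.08 after quantile normalization and -0.07 after cyclic loess. The 1 gene was TBK1, a kinase related to IKK, at 0.65, under 1.5-fold after both. CHUK, the catalytic subunit IKK-alpha, differed by 0.48, IKBKB, the subunit IKK-beta, by -0.39, and SHARPIN, of the linear ubiquitin ligase, by -0.35. Adaptors had a median of 0.13 over 13 kept genes of 15 measured (0.07 after quantile normalization and 0.06 after cyclic loess), with 2 at least 1.5-fold higher, TRAF3 (0.71), which holds the alternative pathway in check, and IRAK2 (0.61), a kinase below interleukin-1 receptors. After quantile normalization IRAK2 was at 0.52, under 1.5-fold, and TRAF3IP2, an adaptor of the interleukin-17 receptor, at -0.60, past 1.5-fold lower (-0.49 before). BIRC2, the close paralog of BIRC3, differed by 0.53, and BCL10, of the CARD-BCL10-MALT1 complex, by 0.50. Of 15 measured receptors 4 were kept, with a median of 0.12, which was -0.0084 after quantile normalization and 0.06 after cyclic loess. TNFRSF12A, the receptor of TWEAK, differed by 1.002 and was the 1 at least 2-fold higher, though not after quantile normalization or cyclic loess. IL1RAP differed by 0.20, TNFRSF1A by 0.05 (-0.09 after either of these) and LTBR by -0.03.

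Of 4 measured other IkB proteins only 2 were kept, with a median of 0.53 (0.45 after quantile normalization and 0.49 after cyclic loess). NFKBIB, also a cytoplasmic inhibitor, differed by 0.71 and BCL3, a nuclear IkB protein, by 0.35. Without a filter the median over all 4 was 0.19. Other negative regulators had a median of 0.22 over 11 kept genes of 13 measured (0.15 after either normalization), with 2 at least 1.5-fold higher: TAX1BP1 (0.68) and TNIP1 (0.63), both partners of A20, and both under 1.5-fold after quantile normalization or cyclic loess. PELI1 differed by 0.30 and N4BP1, another RNase and inhibitor, by -0.33. Other NF-kB target genes had a median of 0.79 over 17 kept genes of 29 measured and 33 listed, of which 7 were at least 2-fold higher and 1 lower, and 11 at least 1.5-fold higher and 2 lower. CXCL8 (4.64) and IL6 (4.46) led them, both from log2 SCR levels under the filter level (4.36 and 3.16), so that neither size is firm. Both were kept there only through their ADARkd level. With log2(value + 16) IL6 differed by 3.09, and with the mean of all its clusters by 2.94. Next were IL1A (2.32), an alarm cytokine, and PTGS2, the inducible cyclooxygenase (2.01). The 1 lower at 2-fold was the chemokine CCL5 (-1.16), and CD83 (-0.98) was the other at 1.5-fold. After quantile normalization and cyclic loess the median of this list was 0.74 and 0.83. Without a filter it was 0.40 over all 29 measured genes. Of these 8 were at least 2-fold higher and 1 lower, where 227 and 199 of all 14232 genes were. Of the listed paralogs of BIRC3 and ZC3H12A, 4 were kept, all of the BIRC3 family. Their median was 0.32, with BIRC2 as above, XIAP at 0.40, BIRC5 at 0.23 and BIRC6 at -0.30.

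In K562 no gene of these 7 lists was at least 1.5-fold apart between the arms among those kept. List medians there lay between -0.17 (other negative regulators, 9 kept) and 0.06 (other IkB proteins, 1 kept). TAX1BP1 differed by -0.28, CFLAR, an inhibitor of caspase-8 activation, by -0.28, BCL2L1 by -0.27 against 1.14 on the arrays labelled HepG2, and TAB2 by -0.24. Between the lines, 4 of 5 receptors kept in either line were called higher on the arrays labelled HepG2 and 1 in K562, against 14.7% and 10.3% of all tested genes. Among the 4 were IL1RAP, the co-receptor of interleukin-1, with a K562 minus HepG2 log2 difference of -3.28 ± 0.20 and K562 levels under the filter level (3.79 and 3.91), and TNFRSF1A, the main receptor of TNF, with -1.40 ± 0.21. TNFRSF1B, the second TNF receptor, was the 1 called higher in K562, by 1.72 ± 0.21, with levels under the filter level on the arrays labelled HepG2 (4.37 and 4.32). Of IKK and its activators none of 11 was called in either direction, and of 19 other target genes 8 were called higher on the arrays labelled HepG2 and 2 in K562. Of these 19 only 7 were kept in both lines. Called genes such as IL1A and PTGS2 lay under the filter level in K562 and entered only through the line where they were high. The count of 8 thus only describes the list.

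**Figure D5:**
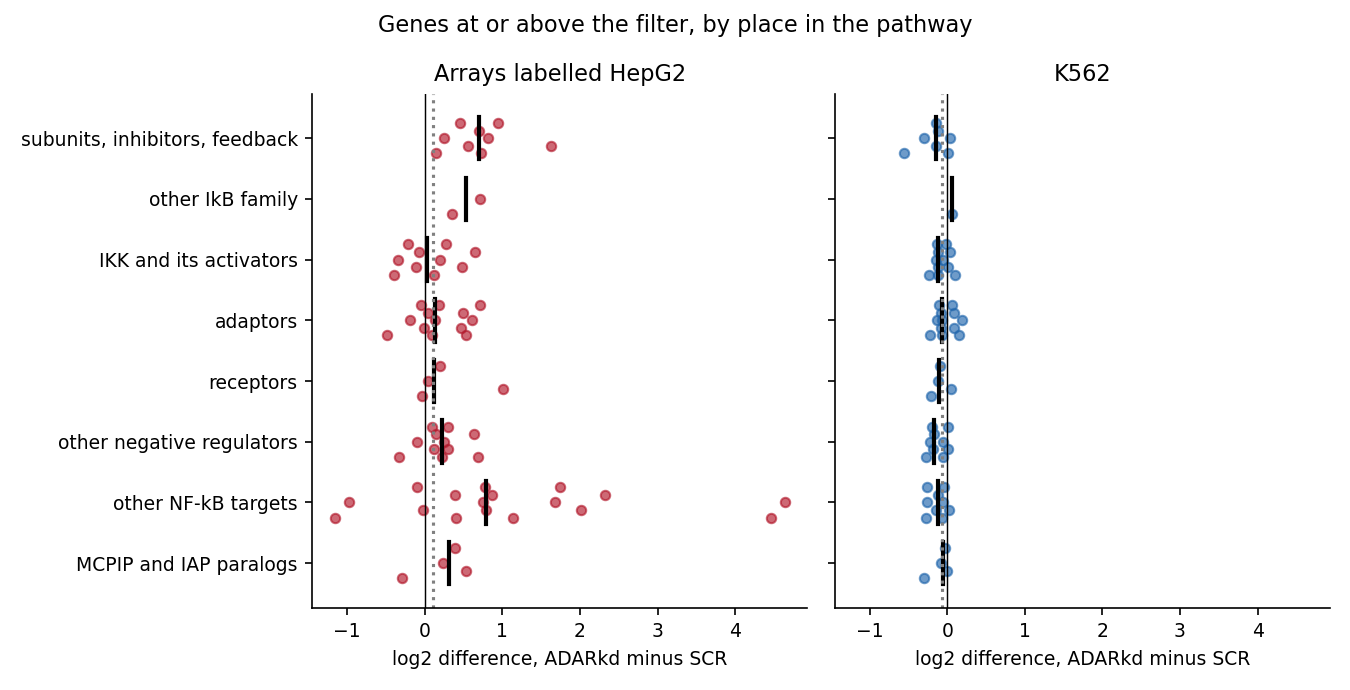
Log2 difference, ADARkd minus SCR (horizontal axis), of the genes at or above the filter in each list (rows), on the arrays labelled HepG2 (left) and in K562 (right); each point is 1 gene, black bars are list medians and dotted lines the median of all kept genes. On the left the members (median 0.69) and the other targets (0.79) lie to the right of IKK and its activators (0.02), and on the right no point is 1.5-fold from 0.

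Markers of other cell types were read beside these values. Of 12 measured lymphocyte and macrophage markers, cell types in which NF-kB genes are abundant, 1 was kept on the arrays labelled HepG2, CD68, and their summed intensity was 279 in SCR and 267 in ADARkd there; PTPRC stood at log2 intensities of 3.04 and 3.03. In K562 3 were kept, PTPRC (7.76 and 7.44 there), CD68 and LYZ, and the sums were 463 and 416. LYZ was at least 1.5-fold lower in ADARkd there (-0.66), as were 0.759% of kept genes. Its ADARkd level of 5.01 lay under the filter level. Of 12 measured fibroblast and stromal markers 8 were kept on the arrays labelled HepG2. Of these 4 were at least 2-fold lower in ADARkd (COL1A1, COL3A1, FN1 and FAP, from -1.12 to -2.42), against 1.57% of all kept genes. None was 2-fold higher, against 2.46%. LUM (0.78) and DCN (0.64) were at least 1.5-fold higher, as were 12.4% of all kept genes. The summed intensity of the 12 was 2487 in SCR and 2439 in ADARkd. These values are of transcripts, and whether such cells were in the cultures was not tested. Any part of such cells in the members' differences was not tested either. In RNA of whole cultures, fewer cells of a type and less RNA per cell cannot be told apart.

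The genes whose profile over the 4 arrays was most like that of TNFAIP3, the member with the largest knockdown difference on the arrays labelled HepG2, were ranked by Euclidean distance between log2 profiles, each centred on its own mean. The nearest 5 of the genes kept in either line were FLRT3 (distance 0.244), EMP1 (0.305), PSCA (0.32), EFNA1 (0.33) and PTGES (0.35), the inducible prostaglandin E synthase. PTGES stood at log2 intensities of 6.72 and 8.27 on the arrays labelled HepG2 and 4.69 and 4.79 in K562, so that it shared with TNFAIP3 a high ADARkd array and dim K562 arrays. With 4 arrays such a likeness is a description of 4 values.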

How the data were processed

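Total RNA was labelled with biotin for Affymetrix whole-transcript arrays, per the labels' protocols. The deposited table holds 1 intensity per transcript cluster and array on a linear scale; the submitters' processing notes name RMA and hg18, and other steps are not given in the sources used here. Log2 was taken without an offset. Of 17881 clusters, 14432 had 1 symbol in the platform annotation, 2408 several and 1041 none; only the first were named. Within a line the result is the log2 difference, ADARkd minus SCR, with no p-value. The shared effect and K562 minus HepG2 came from limma 3.58.1 under R 4.3.3 with line and arm as terms and a trended prior. Its p-values were two-sided and adjusted by Benjamini-Hochberg over every gene tested. The code was tested on simulated data. No depth exists for arrays; their number limits the precision.

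The members and gene lists were chosen with earlier results of these data known. All members were named. Each pathway list gave up to 4 genes with the largest difference on the arrays labelled HepG2 and up to 2 in K562. ALB, CPS1, FOXA1, COL1A1, COL3A1, FN1, FAP, LUM, DCN, PTPRC, CD68, LYZ, CCL5 and CD83 were chosen after their values were seen. The 5 genes most like TNFAIP3 were ranked by distance. Alternatives were quantile normalization, cyclic loess, no filter, a filter at the 75th percentile, log2(value + 16), the mean of all clusters, eBayes without the trend and each arm alone. Protein sequences were not used here. Figures were drawn with matplotlib 3.10.9.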

Additional observations from a re-analysis of the deposited data

Results flagged for a closer look

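In several genes the knockdown difference was of opposite sign in the lines, with 1 array per arm, and the difference between the lines was not tested. The values are log2 differences, labelled HepG2 minus K562. Among the members they were 1.85 for TNFAIP3 (under the filter in K562), 1.11 for NFKBIA, 1.03 for NFKB1, 0.84 for RELB, 0.58 for REL and 0.29 for NFKBIE, all positive on the arrays labelled HepG2 and negative in K562. Of the upstream genes, TBK1 had 0.77, CHUK 0.62, BIRC2 0.60, TAB2 0.43, TNFRSF12A 1.10 and TNFRSF1A 0.26, while SHARPIN (-0.45) and LTBR (-0.084) had the reverse signs. Of the inhibitors, TAX1BP1 had 0.96, TNIP1 0.84, PELI1 0.48 and OTUD7B 0.37, and N4BP1 -0.34. Of targets and paralogs, CXCL8 had 5.14, IL6 4.51, IL1A 2.60, BCL2L1 1.404, XIAP 0.42 and BIRC5 0.24. Several K562 differences were small: -0.0052 for BIRC5, -0.027 for XIAP, -0.053 for IL6, -0.077 for BIRC2, -0.093 for TNFRSF12A and 0.012 for N4BP1. In these genes the listed value came mostly from the arrays labelled HepG2, and a reversed difference in K562 was not shown. The lowest K562 differences of the listed genes were -0.56 for NFKBIA, -0.50 for CXCL8 and -0.30 for NFKB1. The median difference of all kept genes was 0.11 on the arrays labelled HepG2 and -0.07 in K562. Higher in ADARkd were 60.9% of all genes kept on the arrays labelled HepG2, and 66.7% of those kept in K562 were lower. A positive sign in the first and a negative one in the second were thus the commoner signs over all genes. The share of all genes with opposite signs was not counted. CXCL8, IL6 and IL1A lay under the filter in K562, and the K562 value of IL6 turned positive with the mean of all clusters. After quantile normalization the opposite signs were gone for BIRC2, XIAP and BIRC5, and for TNFRSF1A, whose values then were negative in both lines.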

How the results depend on the processing

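All 9 members stayed higher in ADARkd on the arrays labelled HepG2 in every setting in which they were kept; TNFAIP3 ran from 1.47 to 1.62 and RELA from 0.09 to 0.24. TNFAIP3 was the 1 member past 2-fold in each. Members at least 1.5-fold higher numbered 5, but 4 with log2(value + 16) and 3 when genes under the 75th percentile were left out, which keeps fewer members. Over all genes there, 175 were 2-fold higher and 112 lower, against 227 and 199 without a filter, 75 and 41 at the 75th percentile and 103 and 83 with log2(value + 16). In K562 the 2 higher and 9 lower became 16 and 14 without a filter and 0 and 1 at the 75th percentile, and the 830 and 1184 genes called between the lines became 448 and 711 there. For K562 minus HepG2 the count of members apart was 3, and 5 with the ADARkd arrays alone, without a test; NFKB1 had a limma adjusted p of 0.053 with log2(value + 16), over a range of 0.024 to 0.053. The shared differences near 0 turned for NFKBIA (0.042 with log2(value + 16)) and NFKBIE (0.020 after quantile normalization). The shared fit, with line as a term, already pairs the arms within each line, and no other pairing exists with 1 array per group. TNFAIP3 and ZC3H12A were dim in K562, and the part of background in their values there was not tested.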
